A study of Mus musculus with 2 samples.

Results

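The p53 and BCL2 family apoptosis genes were followed through the allele-specific expression of F123 cells, male mouse embryonic stem cells (mESCs) from hybrid embryos whose father was CAST and whose mother was S129/Jae (S129). The genes were taken by name and are Trp53, Mdm2, Mdm4, Bbc3, Pmaip1, Bax, Bak1, Bcl2l1, Bcl2l11 and Mcl1. They made up 10 of the 29833 genes of the table and 15 of its 37178 records, where a record is 1 transcript per gene and transcript biotype. Of the 10 genes, Trp53, Mdm2, Mdm4, Bcl2l1 and Bcl2l11 had 2 records, protein-coding and long noncoding (lncRNA), while the other 5 had a protein-coding record only. Total RNA was sequenced from 2 biological replicates that share the same cell line, genotype and culture, so the only comparison is between the paternal (CAST) and the maternal (S129) allele within these cells. Since only the F123 line was measured, from 1 direction of the cross, strain and parent of origin cannot be told apart. The cells had been moved off fibroblast feeders for at least 2 passages, and LIF was raised in the feeder-free medium. The authors summed the allelic reads over all variants of a record and over both replicates, so no spread between replicates can be given. Intervals and standard errors (SE) cover counting error only, with every count taken as independent. A read can count at several variants, so they can be too narrow.

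The transcription factor p53, encoded by Trp53, responds to DNA damage and other stresses. Mdm2 is the ubiquitin ligase that marks p53 for degradation, and Mdm4 is its relative that binds p53 and restrains its activity. Among p53's targets are genes of the BCL2 family, which controls whether the outer mitochondrial membrane is opened during apoptosis. In that family Bax and Bak1 form the pore, Mcl1 and Bcl2l1 (BCL-XL) hold it closed, and the BH3-only proteins Bbc3 (PUMA), Pmaip1 (NOXA) and Bcl2l11 (BIM) bind the guardians or the pore formers and promote death. mESCs are known to keep mitochondria close to the point at which apoptosis starts.

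Promoters are shown for the genes with unequal allelic reads that had an entry in the RefSeq table, 1 each for Bbc3, Trp53, Mdm2 and Bak1, since these lie at the annotated starts of the genes whose reads were unequal. Each runs 5′ to 3′ on the gene's strand from 250 bases before the RefSeq start to 50 bases after it (RefSeq, GRCm38.p6) and shows the reference genome, not the CAST or S129 sequence. Capitals mark a match to the p53 site, which is a tandem pair of 10-base units with both cores intact and at most 3 mismatches over 20 bases. The Bbc3 window is chr7:16309333-16309632, plus strand. The Trp53 window is chr11:69580109-69580408, plus strand. The Mdm2 window is chr10:117710709-117711008 and the Bak1 window is chr17:27028578-27028877, both on the minus strand.
Bbc3: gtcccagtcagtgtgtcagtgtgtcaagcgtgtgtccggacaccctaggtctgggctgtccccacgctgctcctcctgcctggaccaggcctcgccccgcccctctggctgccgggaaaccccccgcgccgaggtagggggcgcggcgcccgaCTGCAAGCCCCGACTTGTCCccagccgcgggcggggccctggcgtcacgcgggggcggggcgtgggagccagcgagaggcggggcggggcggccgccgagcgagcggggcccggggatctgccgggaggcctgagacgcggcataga
Trp53: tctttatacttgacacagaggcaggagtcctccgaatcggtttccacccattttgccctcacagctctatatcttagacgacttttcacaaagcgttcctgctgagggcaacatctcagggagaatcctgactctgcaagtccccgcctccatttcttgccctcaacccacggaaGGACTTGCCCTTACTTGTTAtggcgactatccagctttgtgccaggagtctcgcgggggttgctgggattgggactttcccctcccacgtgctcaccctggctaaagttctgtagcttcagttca
Mdm2: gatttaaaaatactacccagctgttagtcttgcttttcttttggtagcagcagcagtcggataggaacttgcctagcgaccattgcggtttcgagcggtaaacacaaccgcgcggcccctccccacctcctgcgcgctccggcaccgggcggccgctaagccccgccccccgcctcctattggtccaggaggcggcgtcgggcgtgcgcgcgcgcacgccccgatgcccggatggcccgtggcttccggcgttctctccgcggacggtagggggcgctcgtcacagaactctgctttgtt
Bak1: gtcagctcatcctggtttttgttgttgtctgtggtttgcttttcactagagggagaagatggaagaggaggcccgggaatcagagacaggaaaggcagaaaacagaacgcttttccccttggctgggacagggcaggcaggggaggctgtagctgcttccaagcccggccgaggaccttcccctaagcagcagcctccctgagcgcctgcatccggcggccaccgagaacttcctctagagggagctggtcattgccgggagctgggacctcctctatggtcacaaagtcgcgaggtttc

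A p53 site was found in 2 of the 15 RefSeq promoters of these genes, which cover 9 of the 10 genes, and in 188 of 32851 promoters of all genes (0.572%). These were the promoters of Bbc3, with CTGCAAGCCCCGACTTGTCC at position 154 of the window, and of Trp53, with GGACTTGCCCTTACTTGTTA at position 176. Each match had 3 mismatches. Bbc3 also had RefSeq promoters with starts at bases 16310261 and 16310431, and neither of these held a site. Bases outside the promoter windows, such as those further inside a gene, were not searched, and Pmaip1 had no window. With at most 2 mismatches none of the 15 promoters matched, against 0.158% of all promoters, and the limit of 3 was set after the promoters of these genes had first been searched for a single 10-base unit without mismatches. That single unit was in 3 of the 15 promoters and in 8.36% of all promoters. The GC box GGGCGG, searched on both strands, occurred 5 times in the Bbc3 window and 2 times in the Mdm2 window but not in the windows of Trp53 and Bak1, and was in 35.7% of all promoters. The E-box CACGTG, which reads the same on both strands, occurred once in the Trp53 window and in 7.15% of all promoters. Neither motif shares letters with the p53 site. The record of Bbc3 starts 33 bases downstream of the RefSeq start. The record of Bak1 starts upstream of the printed window, at base 27029009, so that window is not the start of the measured transcript.

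The cell type was checked on its markers. All 10 mESC markers had a level of at least 1 TPM (transcripts scaled to length and library size) in their protein-coding records, between 12.1 and 380.8, with Pou5f1 at 232.4, Sox2 at 297.4 and Nanog at 169.3 TPM. Of 12 fibroblast markers, 2 reached a TPM of 1 in their protein-coding records, the highest was Thy1 at 3.06 TPM, none was at 0, and the 12 summed to 6.63 TPM against 1584.6 TPM for the mESC markers. The lncRNA record of Col1a1 had 2.90 TPM, and that of Thy1 had the highest TPM of all records of these markers and was ASE, with 18 CAST and 77 S129 reads. The part of feeder RNA in the allelic reads was not tested. Over all genes, 17956 records were expressed with a TPM of at least 1, and 15935 of these had allelic reads and are called tested records. CAST reads made up 50.4% of all 16343693 allelic reads.

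All 15 records of the p53 and BCL2 family genes were expressed, and their levels spanned a wide range. TPM is scaled by transcript length and counts reads in exons and introns of the record taken. The order of genes therefore also depends on which record was taken and on its length. The Bax record, for example, spans 1.59 kb and shares 792 bases with another gene's record on the same strand. Mcl1, a short-lived guardian, stood highest at 376.1 TPM, above 99.4% of all expressed records. Bax, a pore former, followed at 179.8 TPM and Trp53 at 69.9 TPM, above 98.4% and 95.3% of expressed records. The protein-coding records of Mdm2 and Bak1 lay close together at 44.9 and 41.2 TPM, as did Mdm4 and Pmaip1 at 22.6 and 22.4 TPM. The lowest were the BH3-only gene Bbc3 at 11.6 TPM, the guardian Bcl2l1 at 5.43 TPM and the BH3-only gene Bcl2l11 at 3.82 TPM. In this order neighbouring genes differed 1.01-fold for Mdm4 and Pmaip1, 1.09-fold for Mdm2 and Bak1 and between 1.42-fold and 2.57-fold for the rest. With 1 value per record no spread is known, so it cannot be said which neighbours in the order differ beyond it.

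Counting exons alone changed the order only among genes that lie close together. Bak1 then had 47.1 TPM over exons and stood above Mdm2 with 35.5 TPM over exons, and Pmaip1 with 25.0 stood above Mdm4 with 15.4. The exon TPM was 0.552 times the TPM over exons and introns for Bcl2l11, 0.683 times for Mdm4 and 0.792 times for Mdm2, while the median over all expressed records was 0.905. Mdm2's lncRNA record had 11.8 TPM over exons and 30.0 TPM over exons and introns, and Mdm4's had 6.50 and 19.7 TPM. The lncRNA record of Trp53 stood at 42.1 TPM, that of Bcl2l11 at 8.03 TPM and that of Bcl2l1 at 4.34 TPM. The lncRNA and protein-coding records of a gene overlap, so their reads are shared and their levels are not independent.

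**Figure D1:**
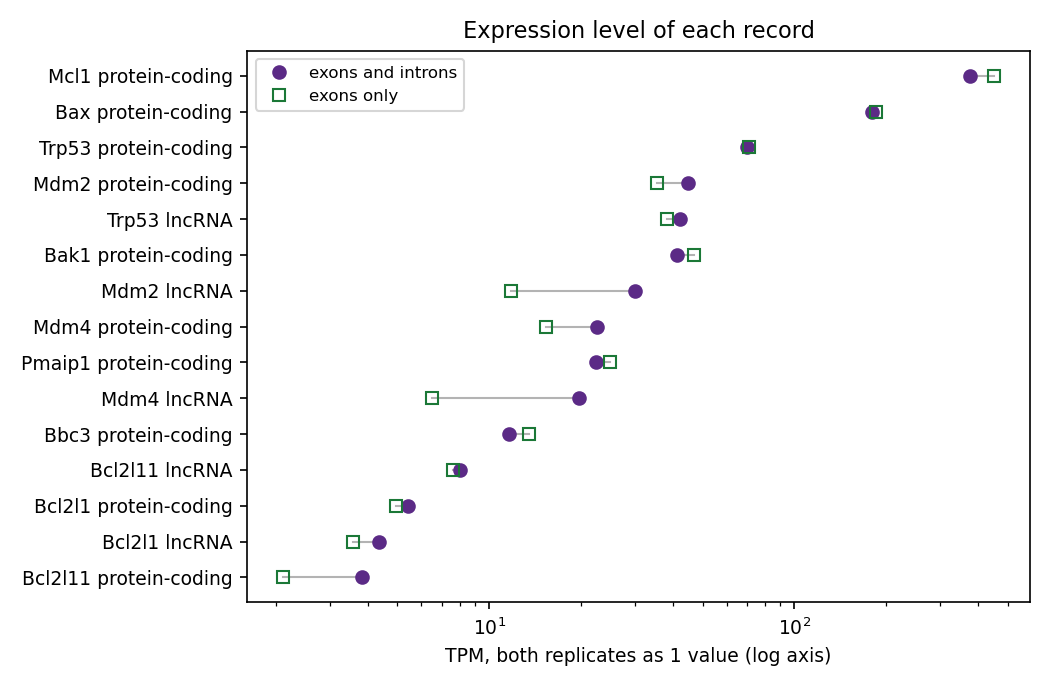
TPM of the 15 records (log axis), with filled circles for exons and introns and open squares for exons only, ordered by level and joined by a line per record. Mcl1 stands highest at 376.1 TPM and the Bcl2l11 protein-coding record lowest at 3.82 TPM, and the Mdm2 and Mdm4 lncRNA records have the widest gap between their symbols.

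Of the 15 records, 1 was called allele-specific (ASE), against 14.1% of all tested records. ASE here asks for a TPM of at least 1, for at least 2-fold more reads of 1 allele, and for an adjusted p of no more than 0.05 in a two-sided exact binomial test, adjusted by Benjamini-Hochberg over 18632 records. The ASE record was Bbc3, with more CAST reads, against 8.33% of all tested records called ASE with more CAST and 5.78% with more S129. The same test without the fold minimum passed 6 of the 15 records, in 5 genes, against 48.3% of all tested records. Of the 6 records, 5 had more CAST reads and 1 had more S129 reads, against 25.4% and 22.9% of all tested records. With a fold minimum of 1.5 in place of 2, 5 of the 15 records passed, against 25.8% of all tested records. The median log2 fold change of the 15 records was 0.16, against 0.01 over all tested records, and the median absolute value was 0.26, against 0.36.

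Bbc3, the BH3-only activator that p53 induces strongly, gave 54 CAST and 6 S129 reads, so 90.0% (79.5 to 96.2%, exact 95% interval) of its 60 allelic reads were CAST. This is a 9-fold difference and a log2 fold change of 3.17 (SE 0.62), with an adjusted p of 6.45e-10 by the exact binomial test, and it exceeds the absolute log2 fold change of 98.0% of all tested records. The record (chr7:16309616-16318205, plus strand, mm10) had 3 variants, 1 in an exon and 2 in introns. It is the record with the fewest reads among the protein-coding records here, and it is left out where at least 100 allelic reads are asked for. Of 1223 tested records with at most 3 variants and 30 to 120 allelic reads, 298 were ASE (24.4%), and 71 (5.81%) had at least 90% of reads from 1 allele. The RNA came from many cells together, so fewer cells with S129 RNA and less S129 RNA per cell cannot be told apart.

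Pmaip1, the other strongly p53-responsive BH3-only gene, had 1142 CAST and 577 S129 reads, or 66.4% CAST (64.1 to 68.7%). Its log2 fold change was 0.98 (SE 0.07), a 1.98-fold difference that lies just under the 2-fold minimum, with an adjusted p of 1.65e-41 by the exact binomial test. The record (chr18:66458533-66465560, plus strand) is well covered, with 31 variants, of which 24 lie in exons. Bcl2l11, the BH3-only gene that is also driven by FOXO factors, had 277 CAST and 302 S129 reads over 36 variants in its protein-coding record, or 47.8% CAST (43.7 to 52.0%), and 110 CAST and 115 S129 reads in its lncRNA record. Its adjusted p was 0.447 for the coding and 0.881 for the lncRNA record by the exact binomial test, and the log2 fold changes were -0.12 (SE 0.12) and -0.06 (SE 0.19). The BH3-only genes thus ran from 47.8% CAST in Bcl2l11 to 90.0% CAST in Bbc3.

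Of the pore formers, Bak1 had 3048 CAST and 1645 S129 reads, or 64.9% CAST (63.6 to 66.3%), and a log2 fold change of 0.89 (SE 0.04, adjusted p 1.11e-92 by the exact binomial test). Bax had 172 CAST and 189 S129 reads, or 47.6% CAST (42.4 to 52.9%), with a log2 fold change of -0.14 (SE 0.15, adjusted p 0.534). The intervals of Bak1 and Bax do not overlap, and the difference between them was not tested. Bak1 had 29 variants, 15 in exons, and Bax had 2, both in exons. The Bak1 record (chr17:27019810-27029009, minus strand) is overlapped by the Ggnbp1 lncRNA record on the opposite strand over 8858 bases, and that record held 3064 CAST and 1661 S129 reads, or 64.8% CAST. The reads of these records cannot be told apart here. At 4.64 TPM over exons, against 47.1 TPM for Bak1, the Ggnbp1 record had few exon reads for its level of 36.0 TPM over exons and introns. Bax (chr7:45465189-45466775, minus strand) is overlapped over 792 bases by Gm45808 on the same strand, which held 651 CAST and 857 S129 reads.

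Neither guardian passed the exact binomial test. Mcl1 (chr3:95658788-95663176, plus strand) gave 770 CAST and 691 S129 reads at 6 variants, or 52.7% CAST (50.1 to 55.3%), with a log2 fold change of 0.16 (SE 0.08, adjusted p 0.0825). Bcl2l1 (chr2:152780672-152830666, minus strand) gave 148 CAST and 124 S129 reads in its coding record, or 54.4% CAST (48.3 to 60.4%), with a log2 fold change of 0.26 (SE 0.18, adjusted p 0.262). Its lncRNA record was 53.5% CAST over 241 reads, with a log2 fold change of 0.20 (SE 0.19). With a 6-variant coding record spread over a long gene, 0.120 variants per kb, Bcl2l1 was the sparsest in variants among these genes.

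Trp53 gave more CAST reads in both records. The coding record (chr11:69580359-69591873, plus strand) had 2705 CAST and 1902 S129 reads at 66 variants, or 58.7% CAST (57.3 to 60.1%), and a log2 fold change of 0.51 (SE 0.04, adjusted p 4.13e-31 by the exact binomial test). The lncRNA record had 1206 CAST and 738 S129 reads, or 62.0% CAST (59.8 to 64.2%), and a log2 fold change of 0.71 (SE 0.07, adjusted p 2.79e-25). If a spread beyond counting error with an intra-gene correlation of 0.01 is assumed, the adjusted p is 0.295 for the coding and 0.0972 for the lncRNA record by a beta-binomial test. At that correlation the same test gave the coding records of Bbc3, Pmaip1, Bak1 and Mdm2 an adjusted p of 3.6e-06, 0.0107, 0.0217 and 0.0324. The Wrap53 coding record starts on the opposite strand, with 103 bases between it and Trp53, and held 153 CAST and 137 S129 reads at 4 variants (adjusted p 0.511 by the exact binomial test). The Wrap53 lncRNA record, further away, ran against Trp53 with 106 CAST and 144 S129 reads, a log2 fold change of -0.44 (adjusted p 0.042).

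Mdm2 was the only gene here with more S129 reads past the test. Its coding record (chr10:117688875-117710758, minus strand) gave 416 CAST and 761 S129 reads, or 35.3% CAST (32.6 to 38.2%), and a log2 fold change of -0.87 (SE 0.09, adjusted p 7.6e-23 by the exact binomial test). These reads came from 3 variants, 1 in an exon and 2 in introns, at 0.137 variants per kb. The lncRNA record held 10 CAST and 13 S129 reads at 1 intronic variant. Mdm4 lay near 50% in both records. Its coding record (chr1:132986220-133025416, minus strand) held 2911 CAST and 2976 S129 reads at 154 variants, the most of any gene here, or 49.4% CAST (48.2 to 50.7%), with a log2 fold change of -0.03 (SE 0.04, adjusted p 0.539). Its lncRNA record held 1098 CAST and 1154 S129 reads. Mdm2 and Mdm4, paralogs that both bind p53, had intervals that do not overlap, and the difference between them was not tested.

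**Figure D2:**
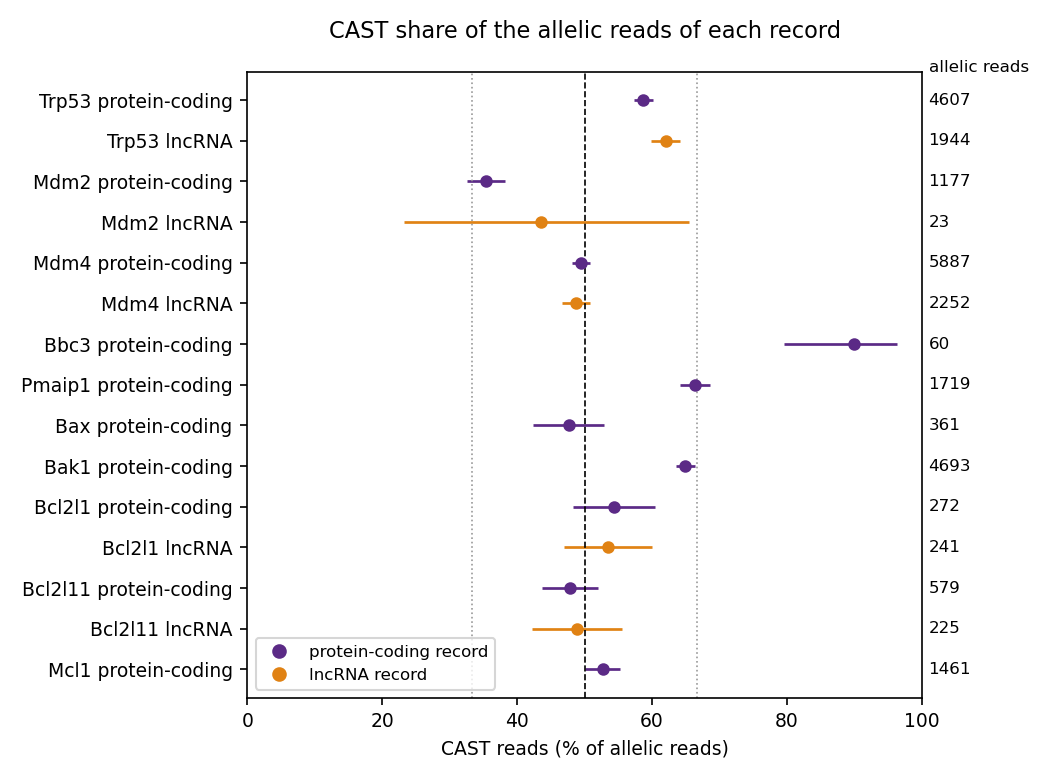
CAST share (%) of the allelic reads of the 15 records with exact 95% intervals, purple for protein-coding and orange for lncRNA records, with the number of allelic reads at the right. The dashed line marks 50% and the dotted lines the 2-fold differences. Bbc3 at 90.0% lies furthest right, Mdm2 at 35.3% furthest left, and Pmaip1 at 66.4% lies by the dotted line.

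For 5 genes with both records, the lncRNA record's reads were subtracted from the coding record's to compare the share inside and outside the lncRNA span, since in all 3170 genes of the table whose lncRNA record lies inside the coding record the lncRNA record held no more reads of either allele and no more variants. The Bcl2l11 lncRNA record starts just upstream of its coding record and is therefore only approximately nested. In Trp53, the 4 variants outside the lncRNA record gave 1499 CAST and 1164 S129 reads, or 56.3% CAST (54.4 to 58.2%), and the 62 variants of the lncRNA record gave 62.0% (59.8 to 64.2%), so both parts carried more CAST reads. In Mdm2, the 2 variants outside the lncRNA record gave 406 CAST and 748 S129 reads, or 35.2% CAST, and made up 98.0% of the coding record's reads. Mdm4 stood at 49.9% CAST outside and 48.8% inside, Bcl2l11 at 47.2% and 48.9%, and Bcl2l1 at 61.3% (42.2 to 78.2%, 31 reads) and 53.5%.

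**Figure D3:**
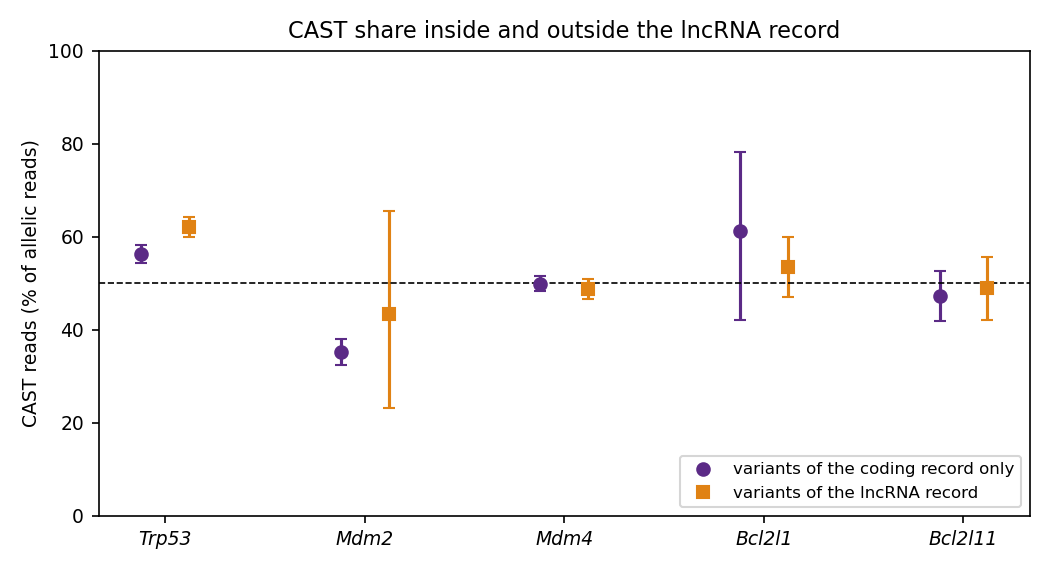
CAST share (%) outside the lncRNA record (purple circles) and inside it (orange squares) for the 5 genes with both records, with exact 95% intervals. Trp53 lies above 50% in both parts, at 56.3% and 62.0%, Mdm2 lies below at 35.2% outside, and the wide interval inside Mdm2 stands on 23 reads.

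The allelic share of a gene was set beside that of its genomic neighbours, the tested records within 500 kb that belong to no gene of this set. Bbc3 lay above all 22 neighbouring records that had reads of both alleles, whose log2 fold changes ran to 1.99, and the remaining neighbour, a Ccdc9 lncRNA record 27.8 kb away, had 20 CAST and 0 S129 reads, or at least a 6.67-fold difference. The 23 neighbours of Bbc3 had a median log2 fold change of 0.10, and 4 of them were ASE with more CAST reads and 0 with more S129. Of these, Slc1a5 at 463 kb had 1459 CAST and 569 S129 reads. Mdm2 lay below all 6 neighbouring records, whose median was 0.23. The nearest of them, Rap1b at 103 kb, had 8 CAST and 3 S129 reads, and the others lay between 312 and 464 kb away. Pmaip1 lay above both neighbouring records, which belong to 1 gene and have a median of -0.41. They lie 456 and 464 kb away, near the edge of the window. Bak1 lay above 17 of 22 neighbours with a median of 0.33. These include the overlapping Ggnbp1 lncRNA record, as the neighbours of Bax include the overlapping Gm45808. The Ggnbp1 coding record, 0.25 kb from Bak1, had 28 CAST and 37 S129 reads and was not ASE. The nearest ASE neighbour of Bak1, the Itpr3 coding record at 28.3 kb, had 444 CAST and 181 S129 reads. Trp53 lay above 31 of 48 neighbours with a median of 0.18, and the Atp1b2 records at 7.86 kb had 23 CAST and 8 S129 reads. Mcl1 and Bcl2l1 lay within their neighbours, with medians of 0.08 and 0.06, Bcl2l11 too with a median of -0.31, and Bax lay below 42 of 65 neighbours with a median of 0.29. Mdm4 lay below 9 of 11 neighbours with a median of 0.48.

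ASE records also lay near genes of this set that were not ASE themselves. Near Bcl2l1, Id1 at 43.3 kb had 209 CAST and 25 S129 reads, a log2 difference of 3.06, while Gm14199 at 159 kb had 7 CAST and 48 S129 reads, a log2 difference of -2.78. Near Bax, the Gys1 record at 9.34 kb had 198 CAST and 398 S129 reads, a log2 difference of -1.01. Near Mdm4, Kiss1 and Gm28040 shared the same 61 CAST and 6 S129 reads at 296 and 299 kb. Near Mdm2, the Mdm1 lncRNA record at 431 kb had 95 CAST and 42 S129 reads, while the Mdm1 coding record, with 580 CAST and 660 S129 reads, was not ASE. No ASE record lay among the tested neighbours of Pmaip1, Bcl2l11 or Mcl1.

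**Figure D4:**
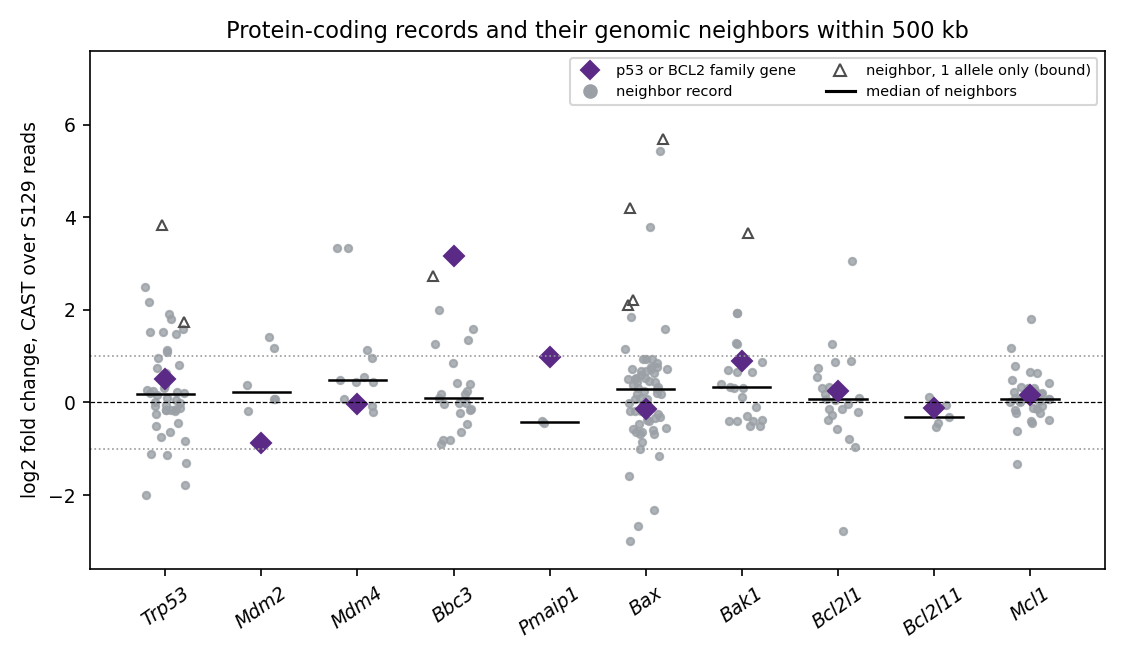
Log2 fold change of CAST over S129 reads of the 10 protein-coding records (purple diamonds) and of the tested records within 500 kb (grey circles), with triangles for neighbours with reads of 1 allele only, drawn at the bound with 3 reads. Black lines are the medians of the neighbours. Bbc3 at 3.17 and Pmaip1 at 0.98 lie above their neighbours' medians of 0.10 and -0.41, and Mdm2 at -0.87 lies below all 6 of its neighbours.

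Variants were dense in Trp53, with 5.73 per kb, and in Pmaip1 (4.41) and Mdm4 (3.93), above the upper quartile of 2.00 per kb over all tested records, and sparse in Bbc3, Mdm2 and Bcl2l1, with 0.349, 0.137 and 0.120 per kb, under the lower quartile of 0.456. Over the 10 protein-coding records, the S129 allele carried the non-reference base at 5 of 336 variants (1.49%), 4 of them in Pmaip1 and 1 in Bcl2l11, against 11.1% over all tested protein-coding records.

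The remaining pathway was described by 4 lists that together hold 92 genes. In the list of p53 pathway regulators, 5 of 43 tested records were ASE (11.6%), 2 with more CAST and 3 with more S129 reads. Trp73, a p53 relative, had 1229 CAST and 188 S129 reads, and Cdkn2a, whose product Arf inhibits Mdm2, had 90 CAST and 36 S129 reads. Rpl11, a ribosomal protein that binds Mdm2, had 442 CAST and 1346 S129 reads in its coding record, a log2 fold change of -1.61 (SE 0.08), and more S129 reads in its lncRNA record too. Ube4b, a ubiquitin ligase that acts on p53, had 6 CAST and 24 S129 reads in its lncRNA record, while its coding record, with 478 CAST and 607 S129 reads, was not ASE. The highest levels were those of Trim28, which works with Mdm2, at 430.5 TPM, and of the lncRNA record of Npm1, whose nucleolar protein binds Arf, at 1071 TPM, and neither was ASE. The Npm1 coding record, at 403.2 TPM, had 4821 CAST and 8237 S129 reads. Its log2 fold change of -0.77 (adjusted p 2.6e-196 by the exact binomial test) was under the 2-fold minimum. Without the fold minimum, 6 records passed the test with more CAST reads (14.0%) and 17 with more S129 reads (39.5%), against 25.4% and 22.9% of all tested records, and the list's median log2 fold change was -0.07. The 23 passing records belong to 19 genes. These shares were not matched for depth, with a median of 1012 allelic reads in the list and 397 over all tested records.

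Of the p53 target genes, 3 of 30 tested records were ASE (10.0%), and the list's median log2 fold change was -0.02. Perp, a membrane protein of cell junctions, had 132 CAST and 503 S129 reads, and Xpc, which recognises damaged DNA, had 564 CAST and 1259 S129 reads. Aen, an exonuclease, had 1008 CAST and 452 S129 reads in its coding record, and 1188 CAST and 646 S129 reads in its lncRNA record, which was under the 2-fold minimum. Ccng1 (cyclin G1) had the highest levels, 371.5 TPM in its lncRNA and 293.5 TPM in its coding record, and neither was ASE. Without the fold minimum, 10 records had more CAST reads (33.3%) and 11 more S129 reads (36.7%), against the same 25.4% and 22.9% of all tested records. The 21 records belong to 16 genes. Depth was again not matched, with a median of 1247.5 allelic reads in this list.

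Of the other BCL2 family genes, 2 of 13 tested records were ASE (15.4%), both with more CAST reads. The BH3-only gene Bik had 124 CAST and 31 S129 reads, and the lncRNA record of the BH3-only gene Bmf had 48 CAST and 6 S129 reads, while its coding record, with 245 CAST and 195 S129 reads, was not ASE. The highest level was that of Bcl2l12 at 19.0 TPM, with Bnip3l, a mitophagy receptor, at 11.4 TPM. Of the list of cytochrome c, the caspases and their inhibitors, which also holds mitochondrial channel genes, 5 of 31 tested records were ASE (16.1%). Casp6, an effector caspase, had 218 CAST and 93 S129 reads, while its lncRNA record had 32 CAST and 32 S129 reads. The lncRNA record of the initiator Casp9 had 40 CAST and 19 S129 reads, while its coding record ran the other way, with 325 CAST and 532 S129 reads and a log2 fold change of -0.71 (adjusted p 1.16e-11 by the exact binomial test). Birc3, an inhibitor of apoptosis, had 44 CAST and 88 S129 reads in its coding and 17 CAST and 42 S129 reads in its lncRNA record. The highest levels, 133.6 and 75.5 TPM, were the lncRNA records of Vdac1 and Vdac2. Without the fold minimum, 4 of the other BCL2 family records had more CAST and 3 more S129 reads (30.8% and 23.1%), and 7 of the caspase list had more CAST and 8 more S129 reads (22.6% and 25.8%). Median depth was 228 allelic reads in the other BCL2 family records and 557 in the caspase list. The 4 shares of ASE records, between 10.0 and 16.1%, stand beside 14.1% over all tested records. They were not matched for depth, and the lists were not tested as sets.

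**Figure D5:**
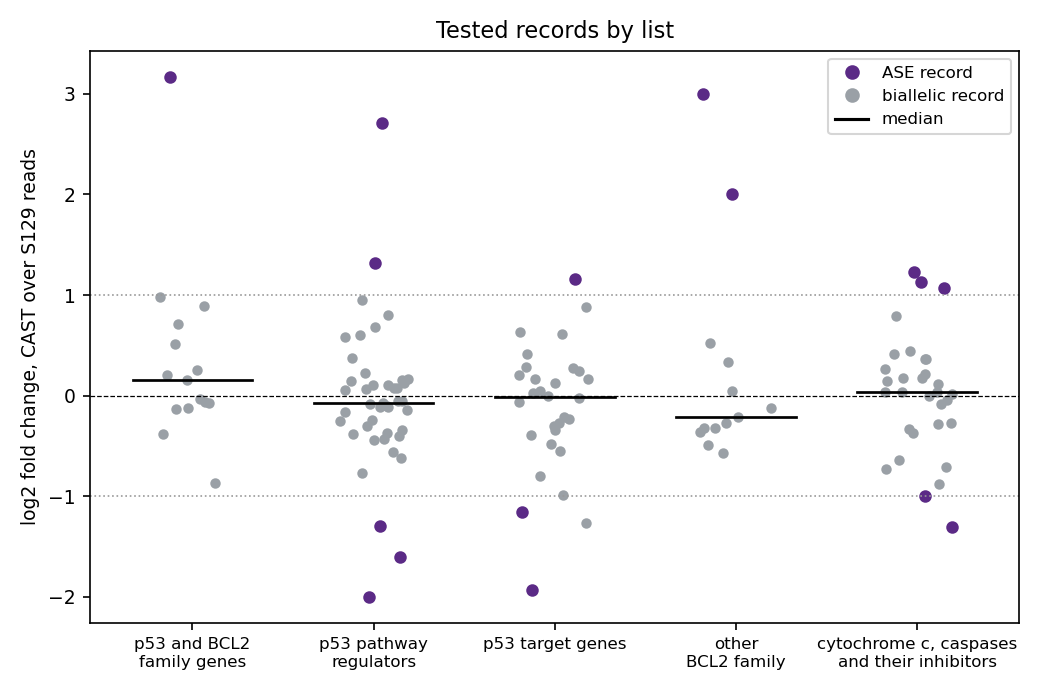
Log2 fold change of CAST over S129 reads of every tested record of the p53 and BCL2 family genes (left) and of 4 lists of pathway genes, with ASE records in purple, other records in grey and black lines for medians. The medians are 0.16, -0.07, -0.02, -0.21 and 0.04 from left to right, and the highest point among the p53 and BCL2 family genes is Bbc3 at 3.17.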

How the data were processed

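Total RNA-seq of F123 mESCs was made from 2 biological replicates as stranded libraries. The authors aligned reads to mm10 with STAR (version 2.7.2c) and the F123 variants, removed duplicates with Picard, and turned HTSeq counts into the deposited TPM values by transcript length and library size. The authors used GATK ASEReadCounter for the deposited allelic counts, which are pooled over a record's variants and over both replicates. The 15 records of the set held 23 to 5887 allelic reads. A read can count at several variants. The methods ask for 20 reads per variant, while records of the table hold as few as 8. The authors' p-value, log2 fold change and class columns were not used.

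Equal shares were tested per record with a two-sided exact binomial test and Benjamini-Hochberg adjustment over all 18632 records with allelic reads, without added reads, and the calls were tested on simulated data. For an allele at 0 reads, the fold was bounded with 3 reads over both replicates. Alternatives changed the read, TPM and fold minimums, the null share, the assumed spread and the record type. Promoters came from RefSeq (GRCm38.p6). Named genes are all records of the set, and per list up to 4 ASE records per allele with reads of both alleles, the 2 highest in TPM and the markers, as well as overlapping genes and up to 2 nearest ASE neighbours. An item that these rules would name is not reported here. The other record of some named genes, and Wrap53, were added after their values were seen. Genes and lists were chosen with earlier results of these data known. Tests ran in scipy 1.17.1 under Python 3.11.15, tables in pandas 2.3.3 with numpy 2.4.6, and plots in matplotlib 3.10.9.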

Additional observations from a re-analysis of the deposited data

How the results depend on the processing

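No paired analysis was possible because the authors pooled both replicates in the deposited table, and for the same reason no replicate could be left out. Among all records, 2249 were ASE, against 1444 with at least 100 reads, 1117 with a TPM of at least 5, 487 with an intra-gene correlation of 0.05, 4104 at a fold of 1.5 and 1305 with coding records only. Of the p53 and BCL2 family records 1 was ASE, and this held under 9 of 11 alternatives, the exceptions being 0 with at least 100 reads and 5 at a fold of 1.5 (Bbc3, Pmaip1, Bak1, the Trp53 lncRNA and Mdm2), against 25.8% of all tested records at that fold. Several of the 9 could hardly change the count. Every record of the set had a TPM and an exon TPM above 1, so dropping that minimum or applying it to exons altered nothing. Bbc3, a coding record with 60 reads and 11.6 TPM, also meets the minimums of 20 reads and a TPM of 5 and the limit to coding records. With the correlation of 0.05, Bbc3 kept an adjusted p of 0.0196 by the beta-binomial test, while those of Pmaip1 (0.939), Bak1 (1), Mdm2 (1) and both Trp53 records (1) did not pass. Regulators numbered 5, against 2 with a TPM of at least 5, 1 with a correlation of 0.05, 10 at a fold of 1.5 and 3 with coding records only. Targets numbered 3, against 6 with no TPM minimum, 0 with a correlation of 0.05 and 8 at a fold of 1.5. Other BCL2 family records numbered 2, against 1 with at least 100 reads, 0 with a TPM of at least 5, 4 with no TPM minimum, 1 with a correlation of 0.05 and 1 with coding records only. Caspase-list records numbered 5, against 3 with at least 100 reads, 1 with a TPM of at least 5, 2 and 0 with correlations of 0.01 and 0.05, 9 at a fold of 1.5, 3 with coding records only and 3 with an exon TPM of at least 1, an alternative chosen after seeing the data. Higher read or TPM minimums and coding records only leave fewer records by construction. The cause of the other differences was not tested. For single records, the other null share and the beta-binomial tests leave the log2 fold change as it is. A read added to each allele shrinks it but cannot change its sign, so direction could move only relative to the neighbours. With 1 read added no record changed call. Relative to the median of the neighbours, the Bcl2l11 records turned to 0.18 and 0.24 on the log2 scale, and Mdm2 (-1.10) and Pmaip1 (1.40) passed the 2-fold minimum. The median for Pmaip1 rests on 2 records of 1 gene, 456 and 464 kb away, and that for Mdm2 on 6 records, the nearest at 103 kb. The Mdm4 lncRNA record was set against the neighbours of its own span, whose median differs from that of the coding record. Against such medians, Mdm4 (-0.51, adjusted p 5.92e-40) and its lncRNA record (-0.58, adjusted p 1.6e-20) passed the exact binomial test toward S129. Bax (-0.43, adjusted p 0.0135) passed it too, and all stayed below the 2-fold minimum. That test took the median as a fixed share and left out the spread of the neighbours, which ran from -0.21 to 3.35 for Mdm4. Against equal shares, neither Mdm4 nor Bax passed.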
